A study of Homo sapiens with 8 samples.

Results

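The genes described here are 10 members of the AP-1 and immediate early response, namely FOS, FOSB, FOSL1, FOSL2, JUN, JUNB, JUND, EGR1, IER3 and SRF. They were chosen by name, with earlier results of these data known. Where a gene had several probes, the brightest on average was read. All 10 had a probe well above background on all 8 arrays, so the filter on dim probes removed none, of 16955 genes that passed it. IER3 had 2 probes and the other members had 1 each. The arrays carried total RNA of OVSAHO and KURAMOCHI, established cell lines of high-grade serous ovarian cancer, cultured with simvastatin or with L-778123 (written L778123 in the labels). Simvastatin inhibits HMG-CoA reductase, the enzyme that makes mevalonate, and L-778123 inhibits the enzymes that attach farnesyl and geranylgeranyl groups, lipids made from mevalonate, to proteins. The 4 groups of 2 arrays were OVSAHO with simvastatin, OVSAHO with L-778123, KURAMOCHI with simvastatin and KURAMOCHI with L-778123, and the comparison asks which genes a statin regulates apart from a block of protein prenylation. Cells without a drug or with vehicle alone were not analysed here, and a drug difference therefore does not show whether simvastatin or L-778123 moved a gene. Drug concentration and exposure time before RNA extraction are not given in the sources used here. Nothing states that the 2 arrays of a group came from separate cultures, so that the p-values measure the spread between these arrays, which may be technical.

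Immediate early genes are switched on within minutes of a stimulus, without new protein synthesis, and are usually silenced again soon after. FOS and JUN family proteins pair through their leucine zippers to form AP-1, a transcription factor that binds the TGA-TCA type of site. EGR1 is a zinc finger transcription factor, IER3 is an early response gene that modulates survival signaling, and SRF binds CArG boxes in the promoters of early genes and of actin cytoskeleton genes. SRF works with the ternary complex factors, which ERK phosphorylates, and with myocardin-related factors, which are released when actin polymerizes. RAS proteins, which act upstream of ERK, are prenylated in order to reach membranes.

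All values below are log2 intensities relative to the 75th percentile of the same array, and differences are on the log2 scale. A gene was called where limma with Benjamini-Hochberg adjustment over all 33753 probes tested gave an adjusted p under 0.05 and the change was at least 2-fold, that is a log2 difference of at least 1. The 75th percentile lay between 324 and 437 intensity units, and each array had between 51.8% and 57.5% of its probes well above background and 0 saturated spots. Replicate arrays differed by a median of 0.096 to 0.11 on the log2 scale, and the number of arrays limits the precision. All arrays lay on 1 slide with each line in its own column of positions, and the effect of position cannot be told apart from that of the group. The 8 markers fixed for ovarian serous carcinoma, PAX8, WT1, SOX17, MUC16, EPCAM, KRT7, KRT8 and KRT18, were well above background on all 8 arrays. Of the 7 markers of blood, endothelium and fibroblasts, PTPRC and VWF were well above background on all 8 arrays, COL1A1 and COL3A1 on the 4 KURAMOCHI arrays alone, CD3E on 1 array, and PECAM1 and DCN on none.

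In OVSAHO cells, 5 of the 10 members were called higher with simvastatin than with L-778123, where 4.77% of all probes were. They were all 3 JUN family genes, EGR1 and IER3. None was called lower, where 6.19% of all probes were, and 1 member, FOSL1, was lower at an unadjusted p under 0.05. The analysis of variance that the methods name, followed by Tukey's test, also called 5 higher and 0 lower. In KURAMOCHI cells, FOS and EGR1 were called higher, 2 of the 10 members against 2.05% of all probes, and none was called lower, against 3.55% of all probes. At an unadjusted p under 0.05, 4 members were lower there, and the analysis of variance again called 2 higher and 0 lower. The median difference of the 10 members was 0.75 in OVSAHO and 0.24 in KURAMOCHI, where the medians over all probes were 0.014 and 0.00096. Only EGR1 was called in both lines. Since these are RNA levels of whole cultures, a change in the share of cells that express a gene and a change of its RNA per cell cannot be told apart.

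**Figure D1:**
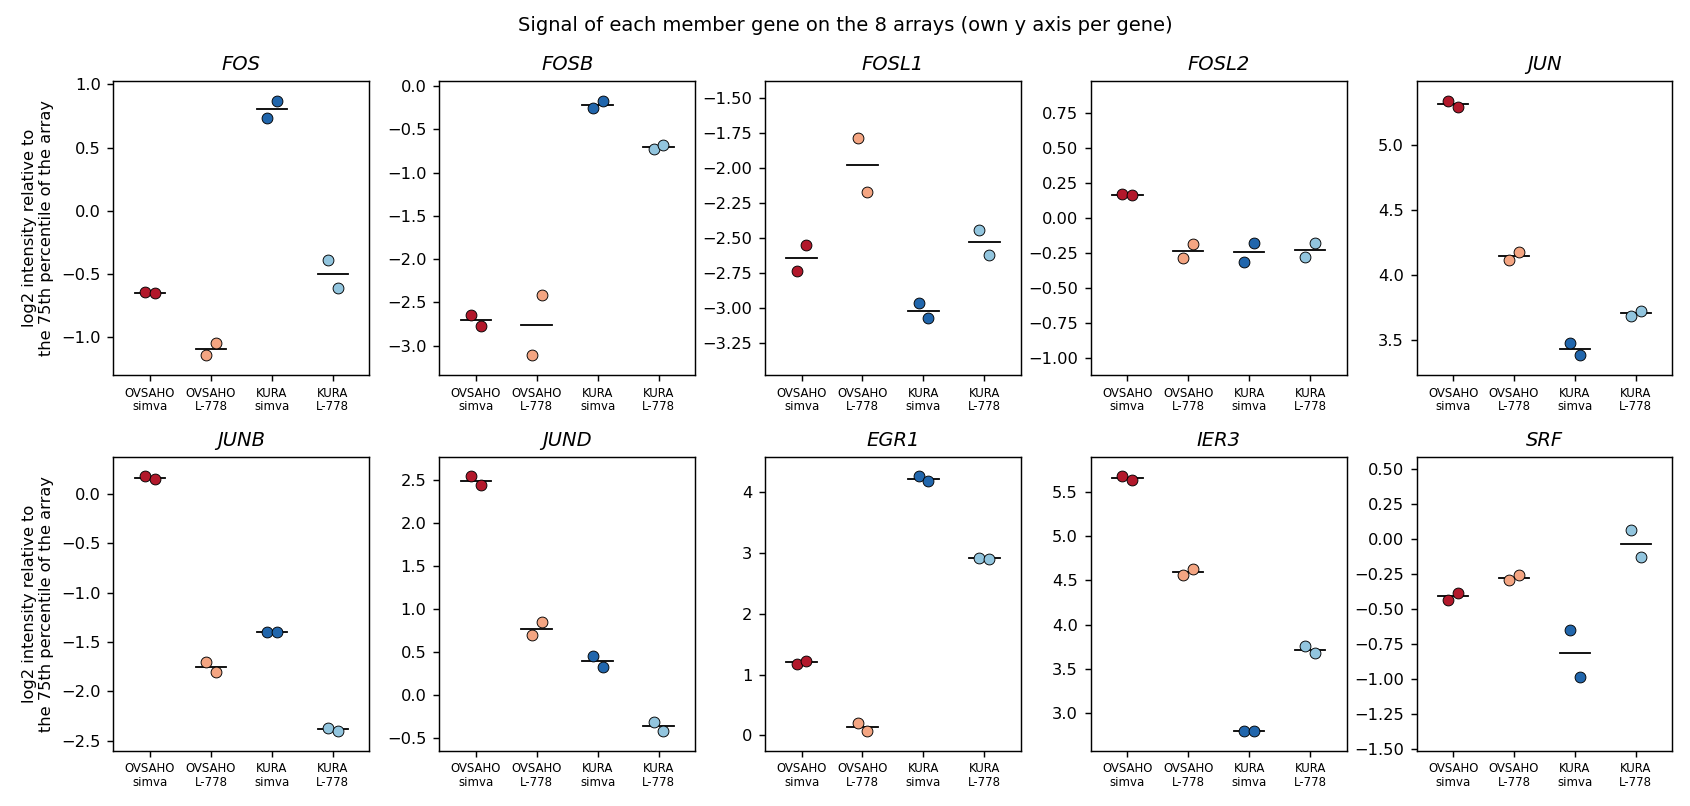
Log2 intensity relative to the 75th percentile of the array for each of the 10 genes on the 8 arrays, with 1 point per array, a bar at the mean of 2 arrays, and a separate vertical axis for each gene. The groups are OVSAHO and KURAMOCHI (KURA) with simvastatin (simva) or L-778123 (L-778). JUN, JUNB, JUND and IER3 were highest in OVSAHO cells with simvastatin, and FOS, FOSB and EGR1 in KURAMOCHI cells with simvastatin.

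The JUN family supplies the subunits that can pair with each other as well as with FOS proteins. JUN, the founding member and a target of JNK, read 5.34 and 5.29 in OVSAHO with simvastatin, 4.12 and 4.18 in OVSAHO with L-778123, 3.48 and 3.39 in KURAMOCHI with simvastatin, and 3.69 and 3.73 in KURAMOCHI with L-778123. The simvastatin arrays were thus the high ones in OVSAHO and the low ones in KURAMOCHI, with no overlap in either line. The difference in OVSAHO was 1.17 ± 0.062 (SE), or 2.25-fold, with an adjusted p of 8.91e-05 from limma. In KURAMOCHI it was -0.28 ± 0.062, with an adjusted p of 0.0215, and below the fold threshold.

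JUNB, often an antagonist of JUN in proliferation, showed the largest drug difference among the members in OVSAHO. It read 0.18 and 0.16 in OVSAHO with simvastatin, -1.70 and -1.80 in OVSAHO with L-778123, -1.40 and -1.40 in KURAMOCHI with simvastatin, and -2.37 and -2.40 in KURAMOCHI with L-778123. In both lines the simvastatin arrays were the higher ones. The difference was 1.92 ± 0.059 (SE) in OVSAHO, or 3.78-fold, with an adjusted p of 2.43e-05 from limma. In KURAMOCHI it was 0.99 ± 0.059, or 1.98-fold, so that with an adjusted p of 0.000368 it lay just under the fold threshold and crossed it after quantile normalization, at 1.03.

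JUND, which unlike the other JUN genes is expressed in resting cells, had the same order of drugs in both lines. It read 2.54 and 2.44 in OVSAHO with simvastatin, 0.69 and 0.84 in OVSAHO with L-778123, 0.45 and 0.32 in KURAMOCHI with simvastatin, and -0.32 and -0.42 in KURAMOCHI with L-778123. No arrays of neighbouring groups in this order overlapped. The difference was 1.72 ± 0.088 (SE) in OVSAHO, or 3.30-fold, with an adjusted p of 8.23e-05 from limma, and 0.76 ± 0.088 in KURAMOCHI, or 1.69-fold, with an adjusted p of 0.00256.

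The promoter windows of JUN and JUND each held 1 element of the AP-1 and CRE type, and the stretch around it is shown because these are the family members whose upstream sequence resembles the sites that AP-1 and ATF dimers bind. The sequences are from RefSeq on GRCh38.p14, in windows of 250 bases before to 50 bases after the start, and the element is in capitals. The JUN stretch is chr1:58784097-58784124 on the minus strand, and the JUND stretch is chr19:18281805-18281832 on the minus strand.
JUN: ggccttggggTGACATCAtgggctattt
JUND: gccgcccccaTGACGTCAacccacaagg
Both strands were searched. TGACGTCA, the CRE, occurred in 1.85% of 35116 RefSeq windows of this length, and TGACATCA, which was added to the search after the JUN window was read, in 2.61%. A match describes letters and was not tested for binding here. The AP-1 site TGANTCA, which neither element contains, was held by 7.71% of the windows. Among the members it was found only in FOSL2, beginning 4 bases after the start. The windows of FOS, FOSB and JUNB matched none of the searched motifs, which says only that these letters are not in those windows, and windows of FOSL1 and IER3 were not used here.

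In the FOS family the 1 called gene was FOS itself, in KURAMOCHI. FOS, the prototype immediate early gene, read -0.64 and -0.65 in OVSAHO with simvastatin, -1.14 and -1.05 in OVSAHO with L-778123, 0.74 and 0.87 in KURAMOCHI with simvastatin, and -0.39 and -0.61 in KURAMOCHI with L-778123. The drug groups did not overlap in either line. The difference was 1.30 ± 0.097 (SE) in KURAMOCHI, or 2.47-fold, with an adjusted p of 0.000651 from limma, and 0.45 ± 0.097 in OVSAHO, or 1.36-fold, with an adjusted p of 0.0122.

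FOSB, the close relative whose long-lived splice form accumulates on repeated stimulation, read -2.64 and -2.77 in OVSAHO with simvastatin and -3.11 and -2.41 with L-778123. The L-778123 replicates lay on either side of the simvastatin pair, and the difference was 0.054 with a 95% interval of -0.48 to 0.59. In KURAMOCHI the FOSB values were -0.26 and -0.17 with simvastatin and -0.73 and -0.68 with L-778123. The drugs did not overlap there, but the difference of 0.49 had an interval of -0.047 to 1.03 and an adjusted p of 0.143 from limma.

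FOSL1, which encodes FRA1 and often follows sustained ERK activity, was the 1 member of the family with non-overlapping lower values with simvastatin in both lines. Its values were -2.73 and -2.55 in OVSAHO with simvastatin, -1.78 and -2.17 in OVSAHO with L-778123, -2.97 and -3.07 in KURAMOCHI with simvastatin, and -2.44 and -2.62 in KURAMOCHI with L-778123. The difference was -0.66 ± 0.15 (SE) in OVSAHO with an adjusted p of 0.0139 from limma, and -0.49 ± 0.15 in KURAMOCHI with an adjusted p of 0.0542, both short of 2-fold.

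FOSL2, which encodes FRA2, spanned the narrowest range of the family. It was 0.17 and 0.16 in OVSAHO with simvastatin, and the 6 other arrays lay between -0.31 and -0.18. The difference was 0.40 ± 0.076 (SE) in OVSAHO, with an adjusted p of 0.00769 from limma, and -0.016 in KURAMOCHI, with a 95% interval of -0.20 to 0.17.

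EGR1 was the member that was called higher with simvastatin in both lines. It read 1.18 and 1.22 in OVSAHO with simvastatin, 0.20 and 0.07 in OVSAHO with L-778123, 4.26 and 4.19 in KURAMOCHI with simvastatin, and 2.91 and 2.91 in KURAMOCHI with L-778123. All 4 KURAMOCHI arrays were above all 4 OVSAHO arrays, whichever drug was used. The difference was 1.06 ± 0.066 (SE) in OVSAHO, or 2.09-fold, with an adjusted p of 0.000148 from limma, and 1.32 ± 0.066 in KURAMOCHI, or 2.49-fold, with an adjusted p of 0.000249. The OVSAHO value was close to the fold threshold and fell below it, at 0.90, with normexp background correction.

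SRF, which is itself an early gene, was lower with simvastatin where it differed. It read -0.43 and -0.38 in OVSAHO with simvastatin, -0.29 and -0.26 in OVSAHO with L-778123, -0.65 and -0.99 in KURAMOCHI with simvastatin, and 0.06 and -0.13 in KURAMOCHI with L-778123. In each line the simvastatin arrays were below the L-778123 arrays. The difference was -0.78 ± 0.13 (SE) in KURAMOCHI, or 1.72-fold lower, with an adjusted p of 0.00733 from limma, and -0.13 in OVSAHO, with a 95% interval of -0.44 to 0.18.

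The upstream windows of EGR1 and SRF are shown because they were the only ones of the 8 members with a window to hold CArG boxes, the element bound by SRF. Each stretch held 2 CArG boxes and 1 EGR1 site, GCGNGGGCG, all in capitals. SRF had 2 windows, and its second held none of the searched motifs. The EGR1 stretch is chr5:138465271-138465415 and the SRF stretch is chr6:43171210-43171268, both on the plus strand of GRCh38.p14 from RefSeq.
EGR1: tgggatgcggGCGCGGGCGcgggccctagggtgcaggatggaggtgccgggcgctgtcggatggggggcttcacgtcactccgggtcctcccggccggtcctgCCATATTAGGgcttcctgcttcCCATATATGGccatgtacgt
SRF: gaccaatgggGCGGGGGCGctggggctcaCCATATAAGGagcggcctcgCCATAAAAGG
A CArG box was held by 1.29% of the 35116 windows and the EGR1 site by 9.43%. EGR1 was called higher with simvastatin in both lines. SRF was called in neither, and its difference in KURAMOCHI was -0.78 with an adjusted p of 0.00733 from limma. Whether these elements have a part in the values of either gene was not tested.

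IER3 had opposite drug differences in the 2 lines. It read 5.68 and 5.64 in OVSAHO with simvastatin, 4.56 and 4.64 in OVSAHO with L-778123, 2.80 and 2.80 in KURAMOCHI with simvastatin, and 3.75 and 3.68 in KURAMOCHI with L-778123. The difference was 1.06 ± 0.059 (SE) in OVSAHO, or 2.09-fold, with an adjusted p of 0.000103 from limma, and -0.92 ± 0.059 in KURAMOCHI, or 1.89-fold lower, with an adjusted p of 0.000439. Its second probe, which was not used for the counts, gave 1.16 in OVSAHO and -0.91 in KURAMOCHI.

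**Figure D2:**
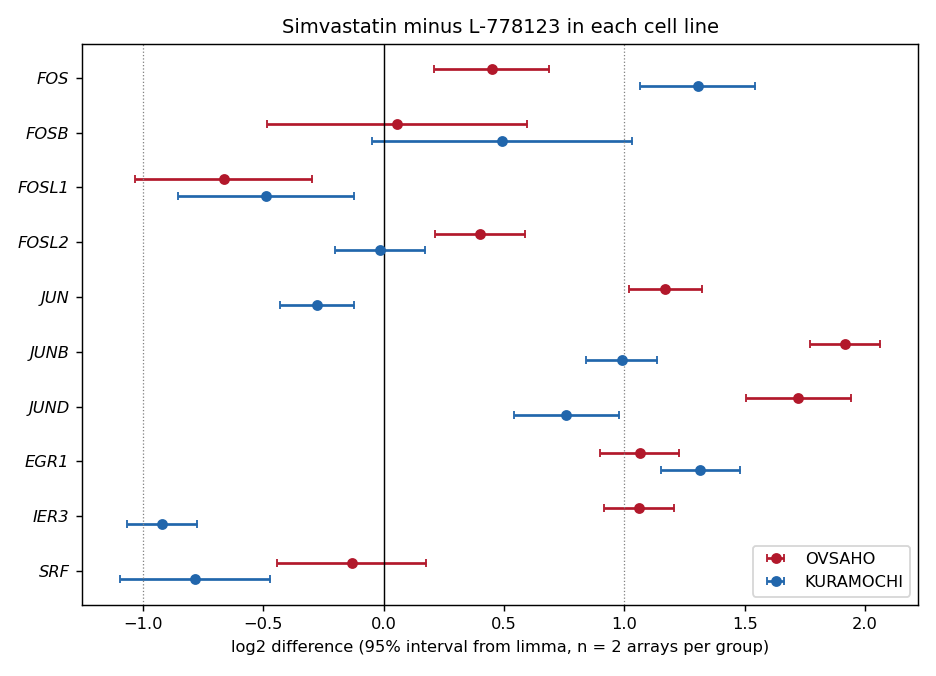
Log2 difference, simvastatin minus L-778123, of each gene in OVSAHO (red) and KURAMOCHI (blue), with 95% intervals from limma and 2 arrays per group. Dotted lines mark a 2-fold change. JUN and IER3 lay on opposite sides of 0 in the 2 lines, and EGR1 lay beyond the upper dotted line in both.

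Whether a drug difference itself differed between the lines was tested in the same fit, as the OVSAHO difference minus the KURAMOCHI difference. Here 2 of the 10 members were called higher, IER3 at 1.98 ± 0.084 (SE) with an adjusted p of 0.000273 and JUN at 1.45 ± 0.087 with an adjusted p of 0.000621 from limma, against 3.86% of all probes. None was called lower, against 3.24% of all probes, and 2 members, FOS and EGR1, were lower at an unadjusted p under 0.05. The analysis of variance called 2 higher and 0 lower. JUND at 0.96 ± 0.12 and JUNB at 0.93 ± 0.084 lay just under the fold threshold, with adjusted p of 0.00529 and 0.00179. FOS went the other way at -0.86 ± 0.14, with an adjusted p of 0.0101, since its difference was the larger one in KURAMOCHI. FOSL2 gave 0.42 with an adjusted p of 0.0428 and SRF 0.65 with an adjusted p of 0.0501.

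For EGR1, FOSL1 and FOSB, the difference between the lines did not pass the test. EGR1 gave -0.25 with a 95% interval of -0.48 to -0.020 and an adjusted p of 0.111 from limma, and with normexp -0.34 with an adjusted p of 0.0189. FOSL1 gave -0.17 with an interval of -0.69 to 0.34, and FOSB -0.44 with an interval of -1.20 to 0.32. These intervals still include differences of over 1.5-fold for FOSL1 and FOSB.

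The levels of most members also differed between the lines, averaged over both drugs. Called higher in OVSAHO were 4 of the 10 members, against 17.5% of all probes, namely IER3 at 1.87 ± 0.042 (SE), JUND at 1.62 ± 0.062, JUN at 1.16 ± 0.044 and JUNB, which was 2.14-fold higher. Called lower in OVSAHO were 3 members, against 16.1% of all probes, namely EGR1 at -2.90 ± 0.047, FOSB at -2.28 ± 0.15 and FOS at -1.02 ± 0.068. The adjusted p of these 7 genes from limma ranged from 1.71e-07 for EGR1 to 3.01e-05 for FOSB. EGR1 was thus 7.47-fold and FOSB 4.84-fold lower in OVSAHO, though the log2 difference of FOSB was -1.44 with normexp background correction. FOSL1 and FOSL2 were 0.46 and 0.20 higher, and SRF differed by 0.084 with a 95% interval of -0.14 to 0.30. FOS and JUNB were close to the fold threshold and fell below it, at -0.89 and 0.80, with the same correction.

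The line difference of the genes with an adjusted p under 0.05 above depended on the drug. JUN was 3.70-fold higher in OVSAHO than in KURAMOCHI with simvastatin and 1.36-fold higher with L-778123. IER3 was 7.27-fold higher with simvastatin and 1.84-fold higher with L-778123. For JUNB the folds were 2.95 and 1.55, and the OVSAHO arrays with L-778123 were below the KURAMOCHI arrays with simvastatin, so that the lines overlapped when drugs were pooled. FOS was 2.73-fold lower in OVSAHO with simvastatin and 1.51-fold lower with L-778123. EGR1, whose drug differences were not shown to differ between the lines, was lower in OVSAHO by 8.15-fold with simvastatin and by 6.84-fold with L-778123. The summed intensity of the 7 markers of other cell types, relative to the 75th percentile, was 0.271 to 0.303 in OVSAHO with simvastatin, 0.868 to 0.903 in OVSAHO with L-778123, 3.14 to 3.16 in KURAMOCHI with simvastatin and 3.84 to 4.02 in KURAMOCHI with L-778123. It differed between the lines and, in each line, was lower with simvastatin than with L-778123. VWF, an endothelial marker, was -3.84 and -3.91 in OVSAHO with simvastatin and -0.55 and -0.61 with L-778123, and was called lower at -3.30 with an adjusted p of 2.43e-05, while PECAM1 was not above background on any array. The part of these markers in the results was not tested.

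**Figure D3:**
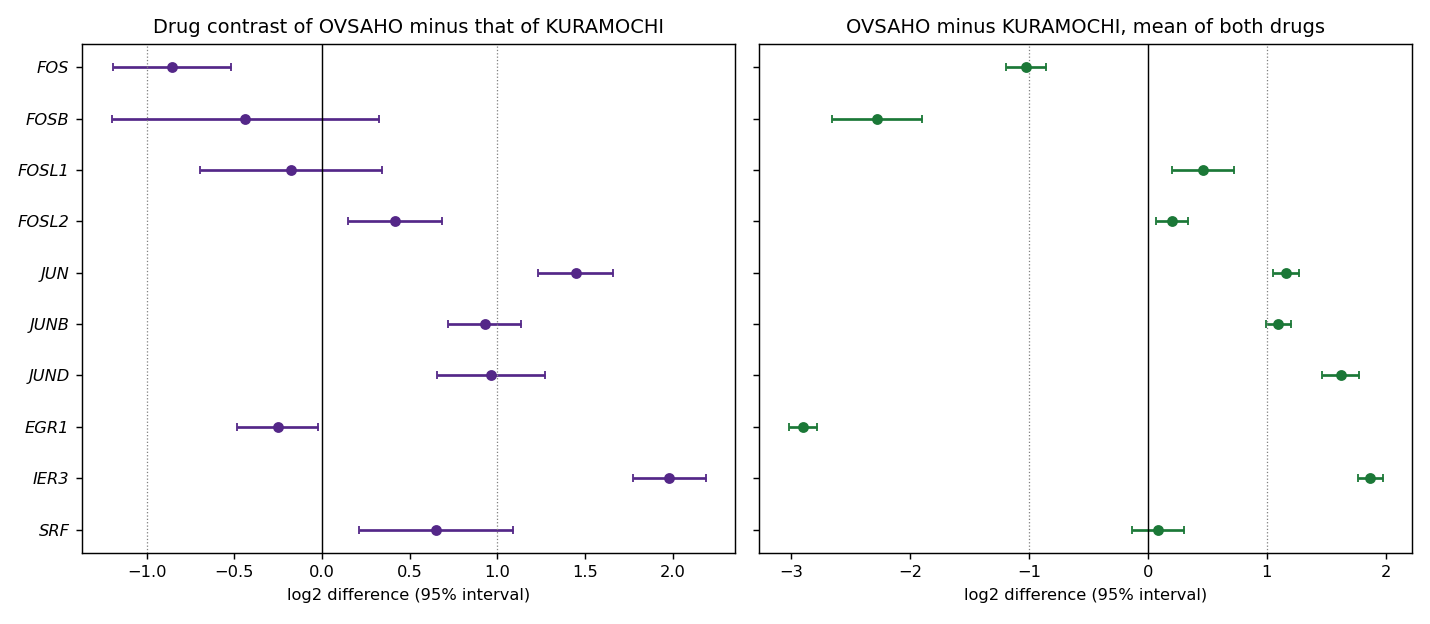
Left, the drug difference of OVSAHO minus that of KURAMOCHI, and right, the level in OVSAHO minus that in KURAMOCHI averaged over both drugs, as log2 differences with 95% intervals from limma over 8 arrays. Dotted lines mark a 2-fold change. IER3 at 1.98 and JUN at 1.45 lay past 2-fold on the left, and EGR1 at -2.90 was the lowest on the right.

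The order of the 4 group means fell into a few patterns. FOS, FOSB and EGR1 ran from KURAMOCHI with simvastatin through KURAMOCHI with L-778123 and OVSAHO with simvastatin to OVSAHO with L-778123. The last pair overlapped for FOSB, while no neighbours overlapped for FOS and EGR1. JUN and IER3 ran from OVSAHO with simvastatin through OVSAHO with L-778123 and KURAMOCHI with L-778123 to KURAMOCHI with simvastatin, with no overlap between neighbours. For FOSL2 the 3 lower groups overlapped, and for FOSL1 the middle groups did.

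As a description, the genes whose values followed those of FOS, FOSL1 and EGR1 most closely over the 8 arrays were sought among the genes that passed the filter. For FOS they were DNAJC22 (Pearson r of 0.993), ISM1 (0.992) and YBX2 (0.991). For FOSL1 they were GLO1 (0.986), C5orf63 (0.985) and MRPS18C (0.983), and for EGR1 CFAP418-AS1, NFE2L1 and ROR2, each at 0.998. The 8 arrays fall into 4 groups of replicates, so that such values rest on 4 group levels, and 99 genes reached 0.99 with EGR1, against 3 with FOS and 0 with FOSL1.

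Of the other immediate early genes, 22 of 26 were tested. In OVSAHO, 7 were called higher and 2 lower with simvastatin, against 4.77% and 6.19% of all probes, with a median difference of 0.56. GEM, among those called higher, was well above background there only on the simvastatin arrays. The largest positive differences were KLF6, a zinc finger factor, at 3.29 ± 0.061 (SE), and ATF3, a stress-induced repressor that pairs with JUN proteins, at 2.78 ± 0.052. KLF6 read 6.09 and 6.02 with simvastatin against 2.75 and 2.79 with L-778123, and ATF3 4.79 and 4.85 against 2.05 and 2.03. The other probe of KLF6 gave 2.12, and the 3 other probes of ATF3 gave 2.89, 2.37 and 0.039. CCN2 and CCN1, matricellular proteins induced through SRF and YAP, were lower with simvastatin by 3.63 and 2.32 on the log2 scale. CCN2 read -4.18 and -3.49 with simvastatin against -0.20 and -0.20 with L-778123, and CCN1 2.34 and 2.40 against 4.69 and 4.69.

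In KURAMOCHI, 1 of these 22 genes was called higher and 3 lower, against 2.05% and 3.55% of all probes, with a median difference of 0.41. The count called higher was 3 with quantile normalization and 0 with normexp. CCN1 and CCN2 were lower by 1.81 and 1.79 on the log2 scale, so that both were called lower with simvastatin in both lines. The 1 gene called higher at the probe read was EGR2, a relative of EGR1. It was well above background on both simvastatin arrays and on neither L-778123 array there, and on 1 array of each OVSAHO group. EGR2 thus passed the filter only through the group where it was brightest, so this call is not independent of the filter. Its drug difference is bounded at at least 2.13-fold. The bound sets the brighter group's mean against the lowest signal well above background or the probe's own signal, whichever was higher. The adjusted p of 0.0252 from limma belongs to the difference as fitted, 2.09 on the log2 scale, and not to the bound. EGR2 was not called with normexp or by the analysis of variance. In that line KLF6 gave 0.25 and ATF3 0.94, neither called, while the 3 other probes of ATF3 gave 1.03, which passed both thresholds with an adjusted p of 0.000736, 0.93 and 0.10. For IER5L the probe read gave 0.23 in KURAMOCHI and 0.24 in OVSAHO, neither called. Its other probe passed both thresholds in both lines, at 1.06 and 1.17, with adjusted p of 0.000342 and 9.28e-05 from limma. EGR3, EGR4 and NR4A1 did not pass the filter, and RHOB had no probe named here.

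Among the other bZIP partners of AP-1, 13 of 14 were tested. In OVSAHO, 4 were called higher and 0 lower, against 4.77% and 6.19% of all probes, with a median difference of 0.75. They included ATF3 and MAFF, which also stand in the list of immediate early genes, and CREB5. CREB5, which can bind as a dimer with JUN, read -2.47 and -2.18 with simvastatin against -4.17 and -4.03 with L-778123, a difference of 1.77 ± 0.11 (SE). In KURAMOCHI limma called 0 of the 13 genes, against 2.05% of all probes higher and 3.55% lower, with a median difference of 0.13. There 5 genes were higher and 5 lower at an unadjusted p under 0.05, and the analysis of variance called 0.

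The MAP kinase cascade feeds the early genes through ERK, JNK and p38. All 25 of its listed genes were tested, and limma called 0 in either line, with median differences of 0.17 in OVSAHO and 0.013 in KURAMOCHI. Their differences spanned -0.86 to 0.81 in OVSAHO and, in KURAMOCHI, -0.27 to 0.42. At an unadjusted p under 0.05, 11 genes were higher and 7 lower in OVSAHO, and 4 were higher and 4 lower in KURAMOCHI. These are RNA levels, and the phosphorylation that drives the cascade was not measured. Of the SRF cofactors, 4 of 6 were tested and 0 were called in either line, with 1 higher and 1 lower at an unadjusted p under 0.05 in OVSAHO and 2 higher and 2 lower in KURAMOCHI. All 10 heat shock genes, a stress response distinct from the early genes, were tested and 0 were called in either line, with medians of -0.36 and -0.14. In OVSAHO 1 of them was higher and 5 were lower at an unadjusted p under 0.05, and in KURAMOCHI 0 were higher and 5 lower. The analysis of variance also called 0 genes of these 3 lists in either drug comparison. Over all probes, limma called 4.77% higher and 6.19% lower in OVSAHO, and 2.05% higher and 3.55% lower in KURAMOCHI.

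**Figure D4:**
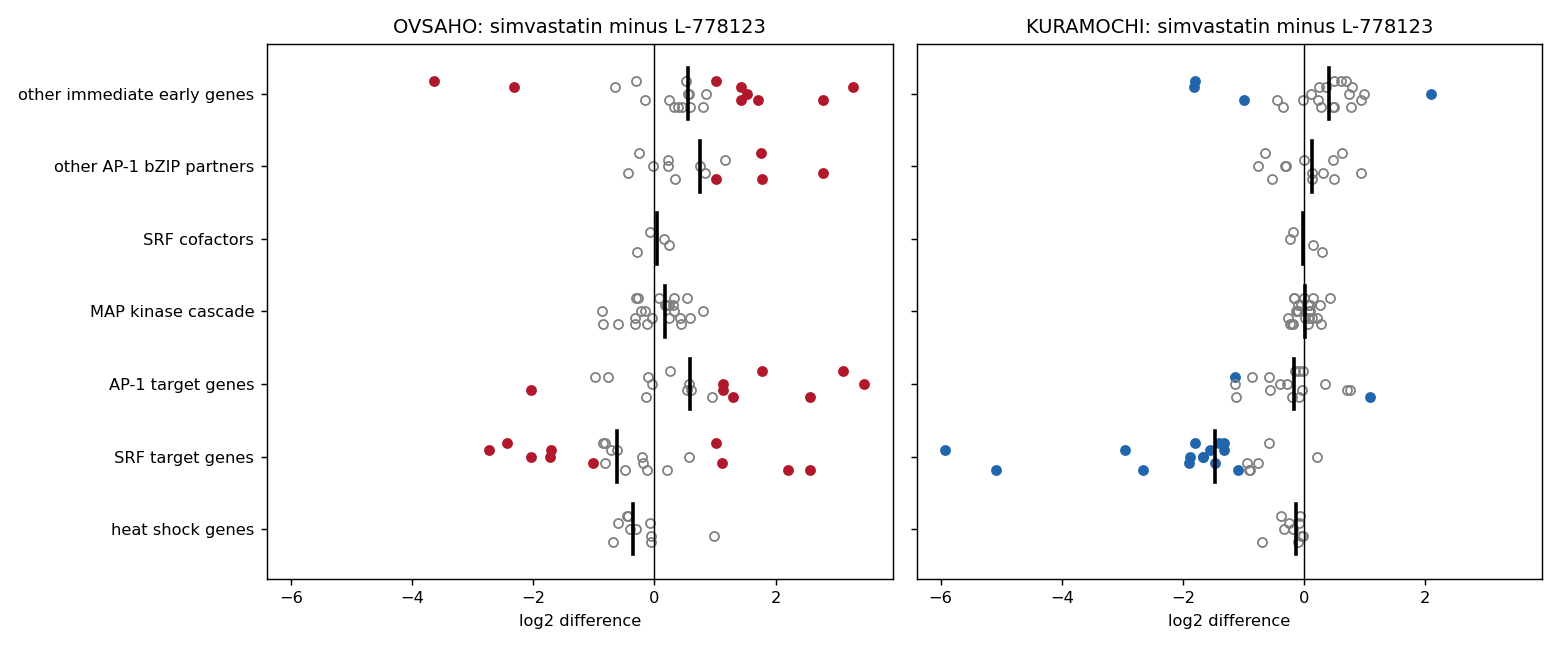
Log2 difference, simvastatin minus L-778123, of every tested gene of the 7 lists in OVSAHO (left) and KURAMOCHI (right). Filled points are called genes, open points are those not called, vertical bars are list medians, and points are spread vertically only for legibility. The 21 SRF target genes had a median of -0.62 in OVSAHO and -1.46 in KURAMOCHI.

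Of 24 genes known as AP-1 targets, 18 were tested. In OVSAHO, 7 were called higher and 1 lower, against 4.77% and 6.19% of all probes, with a median difference of 0.58. In KURAMOCHI 1 was called higher and 1 lower, against 2.05% and 3.55% of all probes, with a median of -0.17. With only probes well above background on all 8 arrays, 4 were called higher in OVSAHO. PLAUR, also called higher in OVSAHO, was well above background on 1 of the 2 L-778123 arrays there. CD44, the hyaluronan receptor, read 1.73 and 1.79 in OVSAHO with simvastatin against -1.75 and -1.67 with L-778123, a difference of 3.46 ± 0.094 (SE). Its other probe gave 0.24 there, with an adjusted p of 0.207 from limma, so that the probes of CD44 disagree. MMP10, a secreted protease, was well above background in OVSAHO only on the simvastatin arrays. This bounds its drug difference at at least 2.22-fold. The adjusted p of 5.41e-05 from limma belongs to the difference as fitted, 3.11 on the log2 scale, and not to the bound. CCND1, which encodes cyclin D1, was lower by 2.04 on the log2 scale in OVSAHO. It read -0.86 and -0.73 with simvastatin against 1.20 and 1.29 with L-778123. In KURAMOCHI, HMOX1, the heme-degrading enzyme, was higher with simvastatin by 1.09 ± 0.073, and HBEGF, an EGF receptor ligand, was lower by 1.14 on the log2 scale. HMOX1 was also called higher in OVSAHO, at 2.56.

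The SRF target genes mostly encode actin and its partners. Of 22 listed genes, 21 were tested. In KURAMOCHI, 0 of them were called higher and 15 lower with simvastatin, against 2.05% and 3.55% of all probes. The median difference of the 21 genes was -1.46, against 0.00096 over all probes. No SRF target was higher at an unadjusted p under 0.05 in that line. ACTG2 and ACTA2, smooth muscle actins, fell by 5.93 and 5.09 on the log2 scale. ACTG2 read 1.62 and 1.51 with simvastatin against 7.58 and 7.41 with L-778123, and ACTA2 1.62 and 1.49 against 6.65 and 6.64. Actin genes are near-identical in their coding sequence, and cross-hybridization between their probes was not tested.

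In OVSAHO the same list was split, with 4 genes called higher and 6 lower, against 4.77% and 6.19% of all probes, and a median of -0.62. ACTG2 and CALD1, which encodes caldesmon, were lower with simvastatin by 2.73 and 2.44 on the log2 scale. LMOD1, an actin nucleator of smooth muscle, and TGFB1I1, a focal adhesion protein, were higher by 2.58 and 2.21. LMOD1 read -0.10 and -0.41 with simvastatin against -2.74 and -2.92 with L-778123 in OVSAHO, and -1.74 and -2.25 against 0.56 and 0.76 in KURAMOCHI, where it was called lower. TGFB1I1 was likewise called higher in OVSAHO and lower in KURAMOCHI, where it gave -1.09. The signed drug difference of OVSAHO minus that of KURAMOCHI was called positive for 8 of the 21 genes and negative for 1, against 3.86% and 3.24% of all probes.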

How the data were processed

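The authors hybridized total RNA labeled with 1 dye to SurePrint G3 Human Gene Expression arrays and extracted the scans with Agilent Feature Extraction 11.5.1.1. The deposited files hold, for each spot, a processed intensity corrected for background within the array, median intensities of spot and local background, and quality flags. The authors also deposited a table of intensity that behaved as quantile normalized, with a median of 26.45 on each array. An equal median alone does not prove this, and the methods state the 75th percentile.

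Control spots and 58 to 99 spots per array flagged as outliers were left out, which left 58162 of 58201 probes. The log2 processed intensity was averaged over the spots of a probe and set relative to the 75th percentile of the array. A probe was tested if both arrays of any 1 group had it well above background, which held for 33753. Symbols came from RefSeq accessions, with 24782 of 50096 identifiers named. Depth has no counterpart on arrays, where the number of arrays limits precision.

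Groups followed the labels. All comparisons came from 1 fit in limma 3.58.1 (R 4.3.3) with 4 group means and a common spread, Benjamini-Hochberg adjustment over all probes kept, an adjusted p under 0.05 and a change of at least 2-fold. The fit was checked on simulated data with known changes. The mark for passing was lower for the difference between the lines than for the drug difference, and was set after that result was seen. Of the 7 lists, the 2 highest and 2 lowest called genes in each drug comparison were named, and FOS, FOSL1 and EGR1 were chosen for the search of similar genes. The members and lists were chosen with earlier results of these data known. Alternatives were other filters, quantile normalization, normexp (offset of 50), a floor, the authors' table, fits of only the groups compared, a replicate block, the methods' analysis of variance, the median over probes, other fold thresholds and each array left out. Normexp used the median of a spot. Figures were drawn with matplotlib 3.10.9.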

Additional observations from a re-analysis of the deposited data

Results flagged for a closer look

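The drug difference, simvastatin minus L-778123, of 6 of the 10 genes differed between the lines by the test of the difference itself, at an adjusted p under 0.05 from limma. OVSAHO minus KURAMOCHI was 1.98 for IER3 (adjusted p of 0.000273), 1.45 for JUN (0.000621), 0.96 for JUND (0.00529), 0.93 for JUNB (0.00179), -0.86 for FOS (0.0101) and 0.42 for FOSL2 (0.0428), all on the log2 scale. For JUN and IER3 the drug groups ran in opposite directions in the lines, with no overlap in either. JUNB, JUND and FOS were higher with simvastatin in both lines, to different extents.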

How the results depend on the processing

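Of the 700 values of the 10 genes under alternatives, 681 kept their direction and their call, 6 lost the call, 7 gained it and 6 changed sign. With a threshold of 1.5-fold, 4 members were higher and 2 lower in KURAMOCHI, 1 was lower in OVSAHO, and for the difference between the lines 4 were higher and 1 lower. With no fold threshold these counts were 4 and 3, 1, and 5 and 1. The changes of sign each came with 1 array left out, over which FOSB in OVSAHO ranged from -0.30 to 0.40, FOSL2 in KURAMOCHI from -0.084 to 0.052, the FOSL1 difference between the lines from -0.37 to 0.018, and SRF between the lines from -0.00019 to 0.17. FOSB in OVSAHO became -0.0078 without replicate 1 with simvastatin and -0.30 without replicate 1 of OVSAHO with L-778123, and the latter array also turned the FOSL1 difference between the lines to 0.018. FOSL2 in KURAMOCHI became 0.052 without replicate 1 with simvastatin and 0.033 without replicate 2 with L-778123. SRF between the lines became -0.00019 without replicate 2 of KURAMOCHI with simvastatin. With normexp, EGR1 in OVSAHO (0.90), and FOS (-0.89) and JUNB (0.80) between the lines, lost the call. FOS between the lines also lost it, at -0.999, -0.989 and -0.966, without replicate 1 of OVSAHO with L-778123, replicate 2 of KURAMOCHI with simvastatin and replicate 1 of KURAMOCHI with L-778123. JUNB in KURAMOCHI was called with quantile normalization and with the authors' table (1.03 each), and at 1.00 without replicate 1 of KURAMOCHI with L-778123. The JUND difference between the lines was called at 1.01 to 1.04 without any 1 of 4 arrays. The replicate numbers did not pair the arrays (correlations of deviations of 0.001 to 0.056), and with the replicate number as a block 5 members were higher in OVSAHO and 2 in KURAMOCHI, as without it, and no call of a member changed. Among values short of 2-fold, the adjusted p over the alternatives, the analysis of variance included, reached up to 0.098 for FOS, 0.13 for FOSL1 and 0.053 for FOSL2 in OVSAHO, 0.10 for JUN and 0.087 for SRF in KURAMOCHI, and 0.14 for the FOSL2 difference between the lines, which was above 0.05 in 10 of 17 alternatives. Others fell below 0.05, to 0.0118 for SRF, 0.0188 for FOSB and 0.0189 for EGR1 in the difference between the lines, 0.0115 for FOSB and 0.0283 for FOSL1 in KURAMOCHI and 0.0242 for FOSB in OVSAHO. With normexp 744 probes were higher and 812 lower in OVSAHO, and 3 AP-1 targets and 2 SRF targets were called higher there. The analysis of variance called 4 AP-1 targets higher in OVSAHO, as did the filter for probes well above background on all 8 arrays. Without a filter the median of all probes moved to 0.21 in OVSAHO. EGR2 in KURAMOCHI was not called without the filter, with normexp, with the groups alone or by the analysis of variance. A slide block was not run, since there was 1 slide. The number of arrays limits what can be detected. Signals near background also limit it, for EGR2 in KURAMOCHI and for GEM, MMP10 and PLAUR in OVSAHO.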
